A study of Mus musculus with 10 samples.

Results

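The beta subunits of the sodium pump were followed in peelings of the corneal endothelium from mice of the genotypes Slc4a11-/- (KO) and Slc4a11+/+ (WT). The genes were Atp1b1, Atp1b2 and Atp1b3, taken by name from the deposited gene counts, and all 3 were found among the 55450 genes of the table. The catalytic alpha subunits were not analysed here. The mice were C57BL/6 and 12 weeks old. The KO mice carried no intact copy of Slc4a11, which encodes a transporter in the membrane of corneal endothelial cells, and the WT mice carried both copies. There were 5 KO and 5 WT libraries, each from the pooled peelings of 6 eyes of 3 animals, so the error between libraries reflects pools and not single animals. The labels do not say how the deletion was made, nor that no animal served more than 1 pool.

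The sodium pump, or Na,K-ATPase, moves sodium out of the cell and potassium in at the cost of ATP. Each pump pairs a catalytic alpha subunit with a beta subunit, a glycoprotein that crosses the membrane once and is needed for the pump to fold and to reach the cell surface. In the corneal endothelium the pump lies in the lateral membrane, and the sodium gradient it makes drives the ion and fluid transport that keeps the stroma thin and clear. Beta subunits also serve in adhesion between cells: the product of Atp1b1 joins epithelial cells, and that of Atp1b2 was first known as the adhesion molecule on glia. The product of Atp1b3 is the widely expressed surface antigen CD298.

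The messages of the 3 genes can be told apart in sequencing, as their coding sequences show. In GENCODE vM21 transcripts the coding lengths were 915 bases for Atp1b1, 873 for Atp1b2 and 837 for Atp1b3. Aligned bases were identical at 61.6% between Atp1b2 and Atp1b1, 60.4% between Atp1b2 and Atp1b3 and 59.3% between Atp1b1 and Atp1b3. The longest run without a difference was 19 bases for the first pair, 12 for the next and 11 for the last. The most alike stretches of 75 bases still held 21, 20 and 25 differences in the same order. They are shown 5′ to 3′, with the bases that differ within a pair in capitals. Coding bases 172 to 246 of Atp1b2 lie opposite bases 157 to 231 of Atp1b1.
Atp1b2: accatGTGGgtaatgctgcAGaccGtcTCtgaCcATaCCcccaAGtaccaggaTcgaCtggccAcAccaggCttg
Atp1b1: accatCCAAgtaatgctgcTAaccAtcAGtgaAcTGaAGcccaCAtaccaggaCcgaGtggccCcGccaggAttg
Coding bases 118 to 192 of Atp1b2 lie opposite bases 115 to 189 of Atp1b3.
Atp1b2: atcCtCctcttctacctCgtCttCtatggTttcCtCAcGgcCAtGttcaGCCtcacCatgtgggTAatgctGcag
Atp1b3: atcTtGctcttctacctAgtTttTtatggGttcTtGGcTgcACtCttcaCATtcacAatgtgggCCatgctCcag
Coding bases 67 to 141 of Atp1b1 lie opposite bases 79 to 153 of Atp1b3.
Atp1b1: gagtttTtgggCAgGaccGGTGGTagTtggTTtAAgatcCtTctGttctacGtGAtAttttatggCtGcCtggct
Atp1b3: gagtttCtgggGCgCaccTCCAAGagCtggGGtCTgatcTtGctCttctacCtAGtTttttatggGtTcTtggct

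Library totals ranged from 36026193 to 51008996 counts, and 17729 genes had enough counts to be tested. Slc4a11 stood at 70.1 to 114 CPM in the KO libraries and at 3489 to 4357 CPM in the WT libraries, so each library matched its label. CPM are counts relative to library size, scaled by trimmed mean of M-values (TMM). The summed level of 10 corneal endothelial markers was 10419 to 13370.0 CPM in KO and 12154 to 13416 CPM in WT. The collagens Col8a2 and Col8a1 made up most of that sum, at 7619 and 2065 CPM in KO and 7374 and 1796 CPM in WT. The peelings also held transcripts of stroma, with 67918 to 91233 CPM in KO and 65941 to 101738 CPM in WT over 11 keratocyte markers. In such bulk samples, fewer cells of a type and less RNA per cell cannot be told apart.

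All 3 beta subunits passed the test, in different directions. Atp1b2 and Atp1b1 fell in KO, and 7.73% of all tested genes were called lower. Atp1b3 rose, and 7.59% of all tested genes were called higher. Calls rest on the quasi-likelihood test of edgeR, with p adjusted after Benjamini and Hochberg over all tested genes and a threshold of 0.05. The groups did not overlap in CPM for any of the 3, which held for 12.0% of all tested genes. With libraries scaled by total counts alone, this lack of overlap remained for Atp1b2 but not for Atp1b1 (1256 to 1556 CPM in KO and 1533 to 1979 CPM in WT) or Atp1b3 (339.5 to 440.7 CPM in KO and 283 to 344 CPM in WT).

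**Figure D1:**
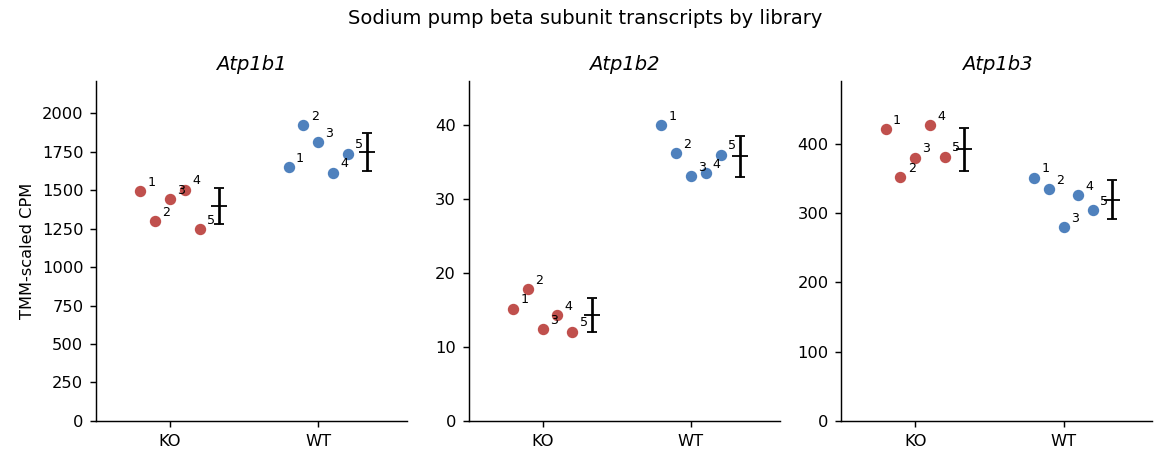
TMM-scaled CPM of Atp1b1, Atp1b2 and Atp1b3 in each KO and WT library, with the library number beside each point and the mean ± SD (n = 5) as a black bar. Atp1b2 lies at 12.1 to 17.8 CPM in KO and 33.1 to 39.9 CPM in WT, a wider gap between genotypes than for the other two.

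Atp1b2 (ENSMUSG00000041329.13) codes for protein and lies on chromosome 11 (GRCm38), minus strand, between 69599736 and 69605942. It had 15.1, 17.8, 12.4, 14.3 and 12.1 CPM in KO 1 to KO 5, against 39.9, 36.2, 33.1, 33.5 and 35.9 CPM in WT 1 to WT 5. Every KO library lay well below every WT library, with KO 2 the highest of the KO set and WT 1 the highest of the WT set. The means were 14.4 ± 2.31 CPM in KO and 35.7 ± 2.74 CPM in WT (SD, n = 5 each), a log2 fold change of -1.32 (SE 0.10) and an edgeR adjusted p of 1.04e-05. The KO level was 0.402 of the WT level. Between 510 and 845 counts in KO and 1453 and 1820 in WT lay behind these values, and 0.666% of tested genes had a lower log2 fold change. No gene of the annotation overlaps Atp1b2.

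Atp1b1 (ENSMUSG00000026576.12) lies on chromosome 1, minus strand, between 164437109 and 164458355. Its values were 1496, 1299.8, 1444, 1505 and 1247 CPM in KO 1 to KO 5, and 1649, 1922, 1811, 1615 and 1739 CPM in WT 1 to WT 5. The groups did not overlap: the highest KO library was KO 4 and the lowest WT library was WT 4. Atp1b1 averaged 1398 ± 118 CPM in KO and 1747 ± 124 CPM in WT (SD, n = 5 each), a log2 fold change of -0.32 (SE 0.08, edgeR adjusted p = 0.016). A lower log2 fold change was seen for 12.8% of tested genes. Of the 10 endothelial markers 2 fell and none rose, with a median log2 fold change of -0.11. The share called lower over all tested genes was 7.73%. The markers that fell were the transcription factor gene Lmx1b (-0.35, edgeR adjusted p = 0.00411) and the scaffold protein gene Grip1 (-1.07, edgeR adjusted p = 0.00484). KO 5, with the lowest Atp1b1 level, also had the lowest summed level of endothelial markers. Between genotypes the median of that sum was 12955 CPM in KO and 12210 CPM in WT, and the ranges overlapped. Most of the sum came from Col8a2 (log2 fold change 0.05, edgeR adjusted p = 0.725) and Col8a1 (0.20, edgeR adjusted p = 0.202). Its direction therefore followed these collagens, while the median log2 fold change over the 10 markers was negative. The end of Atp1b1 overlaps that of Nme7 on the opposite strand over 575 exonic bases, and whether reads were counted by strand is not given in the sources used. Nme7 had 486 to 658 counts in KO and 380 to 566 in WT, and Atp1b1 had 52654 to 66447 in KO and 60491 to 88043 in WT. In CPM, Nme7 was called higher in KO, at 13.4 ± 0.522 against 11.1 ± 0.466 in WT (SD, n = 5 each). Its log2 fold change was 0.27 (SE 0.06, edgeR adjusted p = 0.00967), and the part of shared reads in this was not tested.

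Atp1b3 (ENSMUSG00000032412.8) lies on chromosome 9, minus strand, between 96332655 and 96364442. It had 420.2, 351.4, 379.7, 426.2 and 380.8 CPM in KO 1 to KO 5, against 350.8, 334.4, 279.0, 325.7 and 304.0 CPM in WT 1 to WT 5. The lowest KO library, KO 2, and the highest WT library, WT 1, were almost level. The means were 392 ± 31.2 CPM in KO and 319 ± 27.9 CPM in WT (SD, n = 5 each), a log2 fold change of 0.30 (SE 0.08, edgeR adjusted p = 0.0231). A higher log2 fold change was seen for 12.1% of tested genes. The call was lost without WT 3, WT 5, KO 1 or KO 4, where the log2 fold change was 0.25 to 0.28 and the edgeR adjusted p was 0.0566 to 0.0637. Gm1848, a processed pseudogene on chromosome X that matches Atp1b3 at 96.4% over 805 bases, held 3.49 ± 0.26 CPM in KO and 2.98 ± 0.261 CPM in WT (SD, n = 5 each). Reads of the pair could be split between them, and Gm1848 itself was not called (log2 fold change 0.23, edgeR adjusted p = 0.162).

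The pairs of beta subunits differed from each other in their response. The ratio of 2 counts within a library does not depend on how libraries are scaled, and all 3 ratios were compared between genotypes by exact permutation of the genotypes over the 10 libraries (two-sided). Atp1b2 fell relative to Atp1b3, with a log2 ratio of -4.78 ± 0.28 in KO and -3.16 ± 0.09 in WT (SD, n = 5 each), a difference of -1.63 (SE 0.13). It also fell relative to Atp1b1, with -6.62 ± 0.25 in KO and -5.61 ± 0.16 in WT, a difference of -1.004 (SE 0.13). Atp1b1 fell relative to Atp1b3, with 1.84 ± 0.08 in KO and 2.46 ± 0.19 in WT, a difference of -0.62 (SE 0.09). The genotypes did not overlap for any of the 3 ratios, and each gave an exact permutation p of 0.00794, the smallest this design can give, before and after adjustment over the 3 comparisons.

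**Figure D2:**
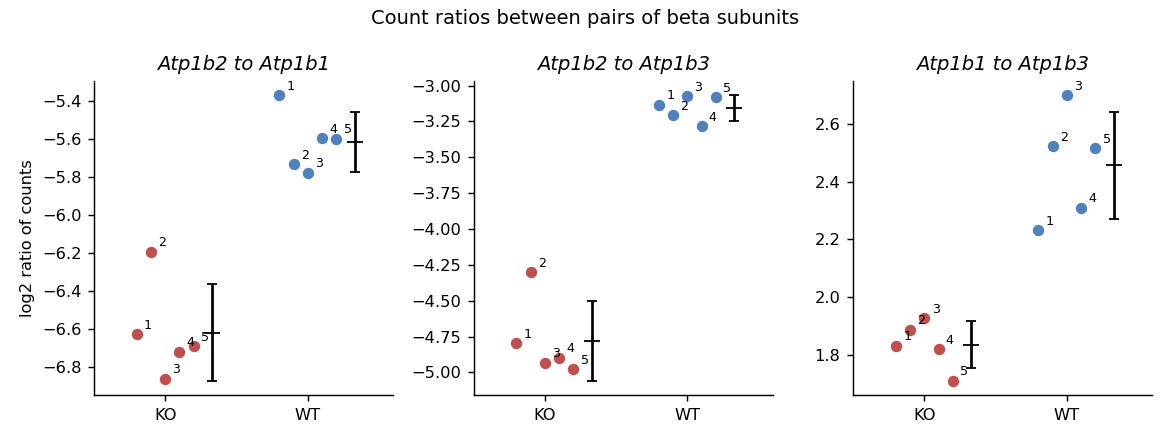
The log2 ratio of counts for each pair of beta subunits in KO and WT libraries, with the library number beside each point and the mean ± SD (n = 5) as a black bar. All KO points lie below all WT points in each panel, and KO 2 lies above the other KO libraries in both panels with Atp1b2.

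The make-up of the beta subunit messages shifted toward Atp1b3. To compare levels between genes, CPM were divided by the exon length of each gene in kilobases (3081 bases for Atp1b1, 4085 for Atp1b2 and 2389 for Atp1b3). This length merges the exons of all annotated transcripts of a gene and can exceed that of the message present. On this scale the levels in KO were 454 ± 38.2 for Atp1b1, 164 ± 13.1 for Atp1b3 and 3.51 ± 0.566 for Atp1b2 CPM per kb (SD, n = 5). In WT they were 567 ± 40.4, 133 ± 11.7 and 8.75 ± 0.671 CPM per kb in the same gene order. The order of the 3 genes was therefore the same in both genotypes, with no overlap between genes in any library. Atp1b1 was among the most abundant messages, at rank 74 in KO and 60 in WT of the tested genes by mean CPM per kb. Atp1b3 was at rank 240 in KO and 284 in WT, and Atp1b2 at rank 8646 in KO and 4850 in WT.

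Atp1b3 held 26.4% ± 1.11 of the summed length-scaled level in KO and 18.9% ± 1.94 in WT (SD, n = 5 each), with ranges of 25.2% to 28.1% in KO and 16.4% to 21.2% in WT. Atp1b1 held 73.0% ± 1.09 in KO and 79.9% ± 2.03 in WT. Atp1b2 held 0.569% ± 0.11 in KO and 1.24% ± 0.112 in WT. The sum over the 3 genes was 567 to 670.3 CPM per kb in KO and 669 to 773 CPM per kb in WT, so the ranges of the sum overlapped slightly. Without the length scaling, the share of Atp1b3 was 21.7% in KO and 15.2% in WT. That of Atp1b2 was then 0.80% in KO and 1.70% in WT, and that of Atp1b1 77.5% in KO and 83.1% in WT.

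**Figure D3:**
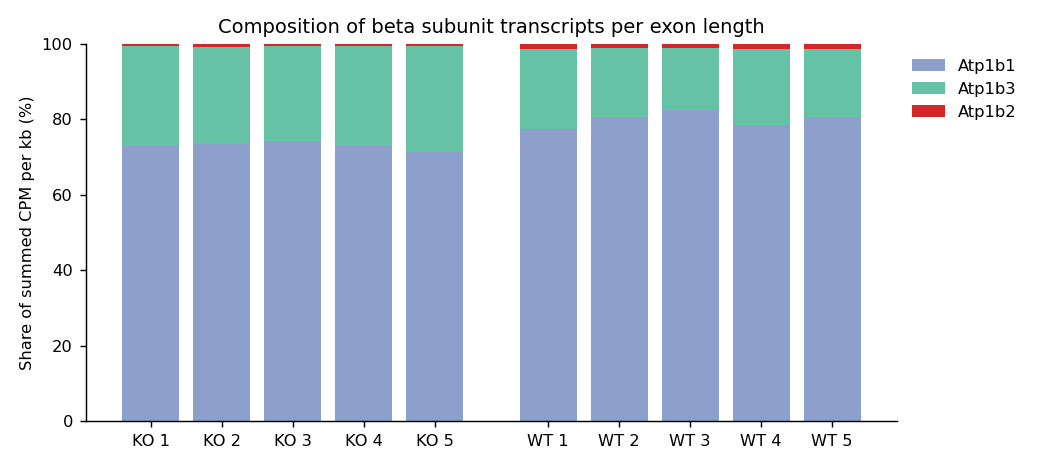
Share of Atp1b1, Atp1b3 and Atp1b2 in their summed CPM per kb of exon, in percent, for each KO and WT library. The Atp1b3 band spans 25.2% to 28.1% in KO libraries and 16.4% to 21.2% in WT libraries, and the Atp1b2 band is thinner in every KO library than in any WT library.

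The 3 genes showed little correlation within genotypes. After each genotype mean was subtracted, Pearson's r of log2 CPM over the 10 libraries was -0.003 between Atp1b1 and Atp1b2, 0.258 between Atp1b1 and Atp1b3 and 0.109 between Atp1b2 and Atp1b3. These values are descriptions, since libraries share depth and tissue make-up across genes. The genes named next were the highest of 10383 over only 10 libraries, so high r among them can arise by chance. Among the 5 genes most like Atp1b1 by this measure were Rai14 (0.948), Rab36 (0.940), Zfp467 (0.939) and Zfp446 (0.933). Rai14, which encodes an actin-associated protein, averaged 80.9 CPM in KO and 106 CPM in WT. Those most like Atp1b2 were Tes3-ps (0.916), Scnn1b (0.914), Lcn2 (0.908), Lrpap1 (0.884) and Fam118b (0.877). Scnn1b encodes a subunit of the epithelial sodium channel and averaged 27.2 CPM in KO and 24.8 CPM in WT. Lcn2, the iron-siderophore carrier lipocalin 2, averaged 28.5 CPM in KO and 41.5 CPM in WT. Those most like Atp1b3 were Lpcat3 (0.911), Tex264 (0.907), Tspan6 (0.895), Syngr2 (0.892) and Mapkapk2 (0.888). The tetraspanin gene Tspan6 averaged 1805 CPM in KO and 1229.8 CPM in WT. The gene for the phospholipid enzyme Lpcat3 averaged 82.1 CPM in KO and 66.8 CPM in WT.

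Other beta subunits of potassium-transporting pumps were not detected. Atp1b4, a muscle protein related to beta subunits, and Atp4b, of the gastric proton pump, had 0 counts in all 10 libraries. In the shallowest library a count of 0 allows a level of up to 0.0833 CPM (3 counts, counting error only). FXYD proteins are small membrane proteins that bind the pump and tune its affinity for ions, and 5 of 7 were tested. Of these, 2 rose, none fell and 3 did not pass, while 7.59% of all tested genes were called higher. The median log2 fold change of the 5 FXYD genes was 0.35, against 0.00 over all tested genes. Fxyd6 was the most abundant, with 259 ± 30.4 CPM in KO and 258 ± 43.7 CPM in WT (SD, n = 5 each), and did not pass (log2 fold change 0.01, edgeR adjusted p = 0.978). Fxyd1, known as phospholemman, rose to 13.6 ± 2.03 CPM in KO, against 9.97 ± 1.77 CPM in WT (log2 fold change 0.45, SE 0.13, edgeR adjusted p = 0.0415). Only leaving out WT 1, WT 4, KO 1 or KO 3 kept the call, and leaving out any other library ended it (0.35 to 0.48, edgeR adjusted p of 0.055 to 0.0943). With Schwann cell markers as covariate, Fxyd1 was at -0.14 (edgeR adjusted p = 0.823).

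Fxyd3, an FXYD protein of epithelia, rose to 2.92 ± 2.73 CPM in KO, against 0.451 ± 0.22 CPM in WT (SD, n = 5 each, edgeR adjusted p = 0.0163), and was uneven among KO libraries, at 0.391 to 7.39 CPM. Markers of corneal epithelium moved the same way. Of 12 such markers 8 rose and none fell, with a median log2 fold change of 2.79, while 7.59% of all tested genes were called higher. The summed level of the 12 was 4931 to 9546 CPM in KO and 3881 to 5287 CPM in WT, with no marker at 0 in every library. Aldh3a1, which was not called (edgeR adjusted p = 0.106), made up most of that sum, at 5497 CPM in KO and 4510 CPM in WT. With the 12 markers as covariate Fxyd3 was at 0.57 (edgeR adjusted p = 0.244). With the KO group reduced to KO 3 and KO 4, its libraries lowest in epithelial markers, it was at 0.74 (edgeR adjusted p = 0.448). The call of Fxyd3 was also lost with limma-voom (2.21, limma-voom adjusted p = 0.11) and with a replicate block (2.25, edgeR adjusted p = 0.0537). Endothelial, photoreceptor or Schwann cell covariates ended it as well (0.78 to 1.19, edgeR adjusted p of 0.346 to 0.847).

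Proteins known to bind beta subunits changed little. Of 7 such genes 5 were tested, of which 1 rose and 4 did not pass, while 7.59% of all tested genes were called higher. The median log2 fold change of the 5 was -0.17, against 0.00 over all tested genes. Wfs1, a protein of the endoplasmic reticulum that binds the product of Atp1b1, rose to 42.8 ± 7.77 CPM in KO, against 33.1 ± 3.27 CPM in WT (SD, n = 5 each; log2 fold change 0.37, edgeR adjusted p = 0.0465). Only leaving out WT 1, KO 3 or KO 4 kept the call, and leaving out any other library ended it (0.29 to 0.40, edgeR adjusted p of 0.0563 to 0.108). With epithelial markers as covariate Wfs1 was at 0.18 (edgeR adjusted p = 0.428).

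Carriers that use the sodium gradient fell in part. Of 16 listed genes 15 were tested, 4 fell, none rose and 11 did not pass, while 7.73% of all tested genes were called lower. The median log2 fold change of the 15 was -0.23, against 0.00 over all tested genes. Slc8a2, a sodium-calcium exchanger, had 1.47 ± 0.38 CPM in KO and 3.15 ± 0.27 CPM in WT (SD, n = 5 each; log2 fold change -1.09, SE 0.18, edgeR adjusted p = 0.00191). Slc5a6, the sodium-dependent multivitamin transporter, had 13.3 ± 0.745 CPM in KO and 18.7 ± 2.43 CPM in WT (log2 fold change -0.49, SE 0.09, edgeR adjusted p = 0.00345). The call was lost with photoreceptor markers as covariate for Slc8a2 (-0.88, edgeR adjusted p = 0.0938) and with the KO group reduced to KO 3 and KO 4 for Slc5a6 (-0.44, edgeR adjusted p = 0.0715). Schwann cell markers as covariate also ended both calls, with Slc8a2 at -0.995 (edgeR adjusted p = 0.229) and Slc5a6 at -0.69 (edgeR adjusted p = 0.0538). The other exchanger Slc8a1 was at -0.66 (edgeR adjusted p = 0.0452) and the phosphate transporter Slc20a2 at -0.17 (edgeR adjusted p = 0.0416). Each of these calls was lost when any of 9 libraries was left out, the exception being KO 3 for Slc8a1 and KO 4 for Slc20a2. Without them Slc8a1 was at -0.71 to -0.54 (edgeR adjusted p of 0.0568 to 0.101) and Slc20a2 at -0.18 to -0.14 (edgeR adjusted p of 0.053 to 0.0956).

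Atp1b2 is also expressed in glia and in photoreceptors, so markers of both were set beside it. Of 12 Schwann cell markers 8 rose and none fell, while 7.59% of all tested genes were called higher. The summed level of these markers was 100.3 to 142 CPM in KO and 72.7 to 84.1 CPM in WT, opposite in direction to Atp1b2. Of 6 photoreceptor markers 5 were tested and none was called, with a median log2 fold change of -1.38, against -1.32 for Atp1b2. All 5 had negative log2 fold changes, from -2.13 to -0.14. The untested marker Rcvrn had few counts, with 0 to 0.119 CPM in KO and 0.230 to 0.760 CPM in WT. The summed level of the 6 markers was 2.91, 6.36, 13.6, 5.23 and 1.71 CPM in KO 1 to KO 5, and 19.3, 23.0, 12.2, 6.87 and 17.5 CPM in WT 1 to WT 5. The KO libraries were mostly lower, but the groups overlapped through KO 3, WT 3 and WT 4. No marker of either list was at 0 in every library. With photoreceptor markers as covariate the log2 fold change of Atp1b2 was -1.25 (edgeR adjusted p = 0.00148), and with Schwann cell markers it was -1.41 (edgeR adjusted p = 0.00912). The part of photoreceptor transcripts in the change of Atp1b2 was not tested beyond this covariate.

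**Figure D4:**
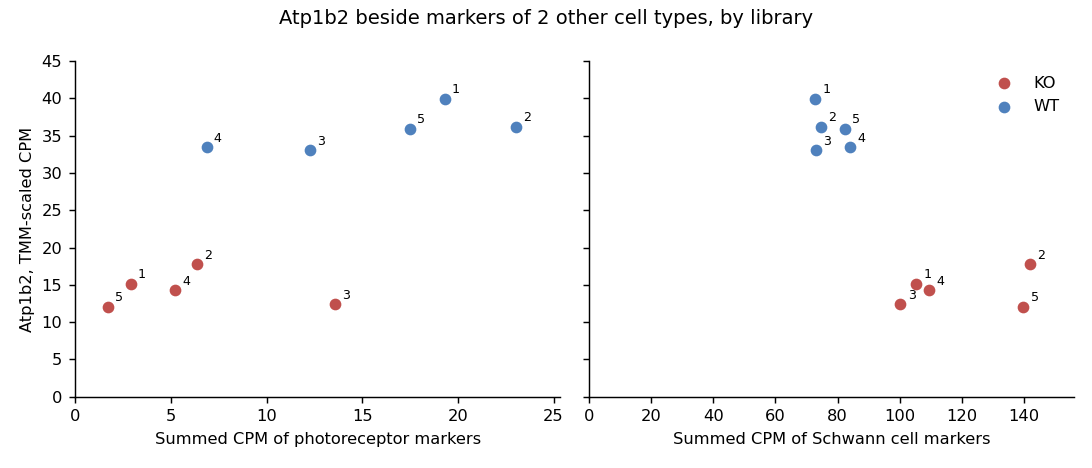
TMM-scaled CPM of Atp1b2 in each KO and WT library against the summed CPM of 6 photoreceptor markers (left) and of 12 Schwann cell markers (right), with library numbers beside the points. Photoreceptor markers span 1.71 to 13.6 CPM in KO and 6.87 to 23.0 CPM in WT and overlap, while Schwann cell markers (100.3 to 142 CPM in KO and 72.7 to 84.1 CPM in WT) and Atp1b2 do not.

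The calls of the other two subunits held with keratocyte markers as covariate, with Atp1b1 at -0.38 (edgeR adjusted p = 0.00174) and Atp1b3 at 0.29 (edgeR adjusted p = 0.0379). They were lost with each of the 4 other marker lists used as covariate. With epithelial markers as covariate Atp1b1 was at -0.29 (edgeR adjusted p = 0.138) and Atp1b3 at 0.29 (edgeR adjusted p = 0.109). With the KO group reduced to KO 3 and KO 4, Atp1b1 was at -0.24 (edgeR adjusted p = 0.25), Atp1b3 at 0.34 (edgeR adjusted p = 0.0785) and Atp1b2 at -1.41 (edgeR adjusted p = 5.67e-05). With Schwann cell markers as covariate Atp1b1 was at -0.049 (edgeR adjusted p = 0.924) and Atp1b3 at 0.40 (edgeR adjusted p = 0.257). Endothelial markers gave -0.19 (edgeR adjusted p = 0.221) and 0.25 (edgeR adjusted p = 0.166) for the same genes, and photoreceptor markers -0.25 (edgeR adjusted p = 0.357) and 0.29 (edgeR adjusted p = 0.251). Within genotypes, Pearson's r over the 10 libraries between Atp1b1 and the mean log2 CPM of a marker list was -0.821 for Schwann cells, -0.794 for keratocytes, -0.737 for macrophages, -0.73 for blood vessels and 0.722 for corneal endothelium. For the same lists r was 0.145 to 0.567 with Atp1b2 and -0.388 to 0.145 with Atp1b3. These are descriptions over libraries that share tissue make-up, and the part of these cell types in the change of Atp1b1 and Atp1b3 was not tested beyond the covariates.

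**Figure D5:**
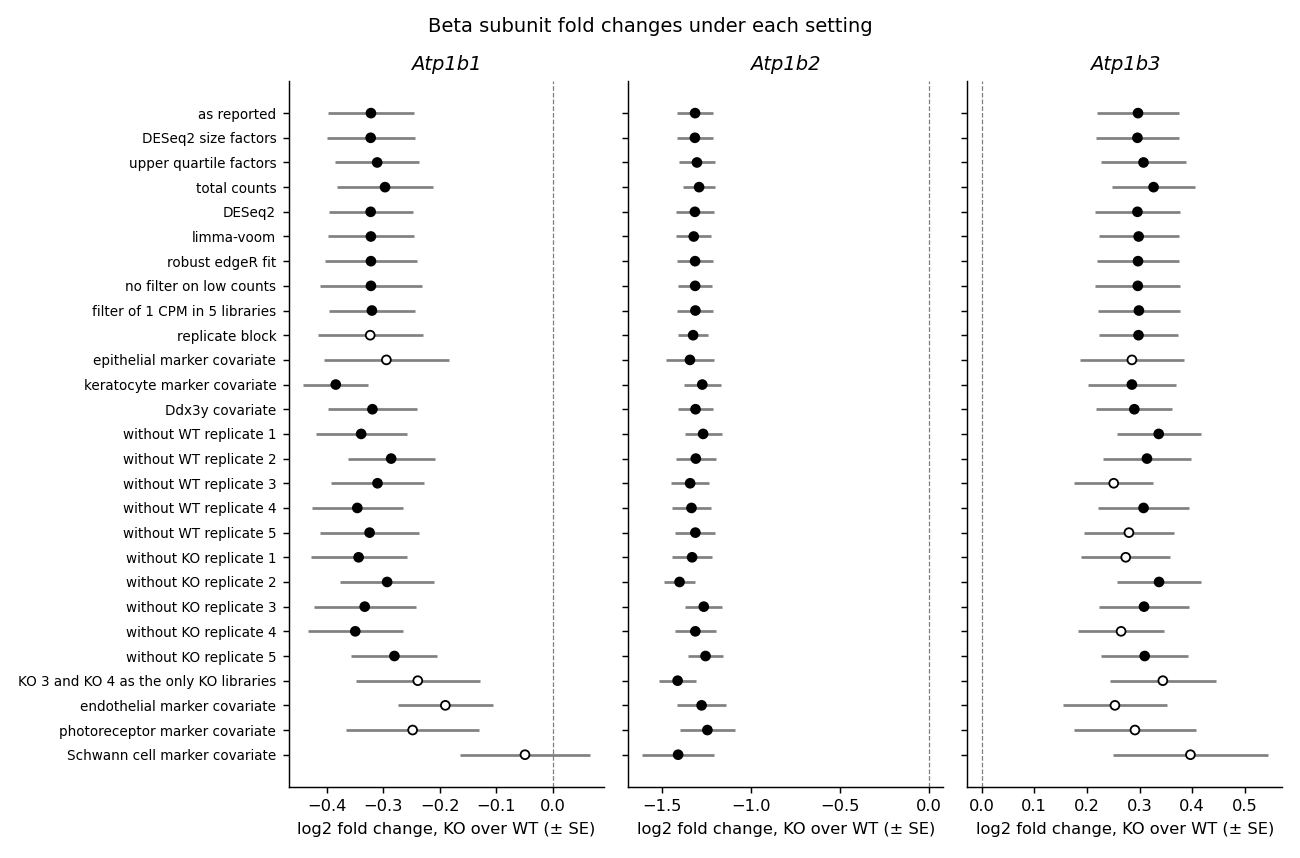
The log2 fold change of KO over WT (± SE) for each beta subunit under each processing setting, filled where the adjusted p was under 0.05 and open where it was not. Atp1b2 stays between -1.41 and -1.25 and is filled throughout, and the Atp1b1 and Atp1b3 points keep their sign but are open in several settings.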

How the data were processed

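Raw counts per gene and library were deposited by the authors as a table of 10 libraries. Per the submitters' processing notes, the tools were HISAT2 2.1.0, Subread 1.6.4 with featureCounts, cutadapt 2.4 and Trim Galore 0.6.4, and the genome was GRCm38.p6. Strand setting, multi-mapping reads and annotation release: not given in the sources used here. Per the labels' protocols, libraries were stranded and selected for polyadenylated RNA. All 55450 gene IDs matched GENCODE vM21, which gave symbols, positions, exon lengths and transcript sequences.

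Genotype came from the sample titles. Counts were tested in edgeR 4.0.16 (R 4.3.3) after filterByExpr (minimum count 10, minimum total 15) and TMM scaling, without covariates, with Benjamini-Hochberg adjustment over 17729 genes. The common biological coefficient of variation was 16.3%. The fit was tested on simulated data. Likeness was computed on log2 CPM (prior count 2) over 10383 protein-coding genes averaging 5 CPM or more, without predicted genes. Alternatives used DESeq2 1.42.0, limma-voom (limma 3.58.1), other scalings and filters, marker or Ddx3y covariates, a replicate block and each library left out. The fits with KO 3 and KO 4 only and with endothelial, photoreceptor or Schwann cell covariates were added after seeing the data. Members and gene lists were chosen with earlier results of these data known. Named were the members, up to 4 called genes per list (else the 2 most abundant), and the 5 genes most like each member. Fxyd6 was picked with its values known, Nme7 and Gm1848 for overlap or similarity, and 1 gene like Atp1b1 is not reported here. P-values measure the spread between pools.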

Additional observations from a re-analysis of the deposited data

Results flagged for a closer look

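Among the KO libraries, KO 2 stood apart in the log2 count ratio of Atp1b2 to Atp1b3, at -4.30, while the other KO libraries lay between -4.98 and -4.79. Its gap to the nearest library was 0.728 of the range, against a critical value of 0.71 (Dixon's test at the 95% level). Of 12 groups of values examined this was the only one past that value, and chance flags about 1 group in 20. KO 2 still lay below every WT library, and without it the difference between KO and WT was -1.74.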

How the results depend on the processing

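Atp1b2 kept its direction and its call under all 27 alternatives, with log2 fold changes of -1.41 to -1.25. Atp1b1 and Atp1b3 kept their direction in all 27 and their call in 20 and 17. For Atp1b1 the call was lost with epithelial (-0.29), endothelial (-0.19), photoreceptor (-0.25) or Schwann cell (-0.049) marker covariates, with the KO group reduced to KO 3 and KO 4 (-0.24) and at an adjusted p under 0.01 (-0.32). For Atp1b3 it was lost with the same covariates (0.29, 0.25, 0.29 and 0.40), with KO 3 and KO 4 only (0.34), at an adjusted p under 0.01 (0.30) and without some libraries; the cause was not tested. Leaving out 1 library gave -0.35 to -0.28 for Atp1b1, -1.40 to -1.26 for Atp1b2 and 0.25 to 0.34 for Atp1b3. The summed Schwann cell markers did not overlap between genotypes. With that covariate Atp1b2 was at -1.41 (edgeR adjusted p = 0.00912), and the SE was 0.115 for Atp1b1 and 0.147 for Atp1b3, against 0.0767 and 0.0769 without it.

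Of all tested genes 2716 were called, and 1815 to 3094 with 1 library left out. The count was 1210 with the epithelial, 1229 with the endothelial, 483 with the photoreceptor and 286 with the Schwann cell covariate, 1105 with KO 3 and KO 4 only and 1024 at an adjusted p under 0.01. Scaling by total counts called 1555 genes higher and 1054 lower, against 1346 and 1370. Fxyd1 reversed to -0.14 with the Schwann cell covariate.

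Same-numbered libraries did not deviate together (correlations of -0.416 to 0.085), so no pairing by number was seen. With so few libraries this check cannot tell whether same-numbered pools were handled together. With the replicate block 1691 genes were called, Atp1b1 was at -0.32 (edgeR adjusted p = 0.0682), and the ratios differed by -1.004 (Atp1b2 to Atp1b1), -1.63 (Atp1b2 to Atp1b3) and -0.62 (Atp1b1 to Atp1b3), where an exact sign-flip permutation test cannot go below 0.0625. With KO 3 and KO 4 only, the ratios differed by -1.18, -1.76 and -0.58, with a smallest possible exact permutation p of 0.0952. Leaving out 1 library gave -1.11 to -0.94, -1.74 to -1.58 and -0.68 to -0.56, each with an adjusted exact permutation p of 0.0159.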
